A study of Mus musculus with 18 samples.

Results

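Heat shock proteins and chaperones were followed in cultured neurons of the mouse dorsal root ganglion (DRG), which relay touch, heat and pain to the spinal cord. The group held 10 genes by symbol, Hspa1a, Hspa1b, Hspa8, Hspb1, Hsph1, Hsp90aa1, Hsp90ab1, Dnaja1, Dnajb1 and Bag3. All 10 were among the 17198 genes of the deposited table. They were chosen by a measured value, the count of Hspa1b, which had been seen higher in the mutant cultures at 48 h. The 48 h values of Hspa1b, and of its near-identical copy Hspa1a, are therefore given without a test, and the other 8 genes were tested in every comparison.

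RNA came from cultures of wild-type mice (WT) and of mice heterozygous for the tm1a allele of Dynlrb1 (HET). Its protein, a roadblock-type light chain, is part of the dynein complex that moves organelles and signals from axon tips back to the soma. Cultures were collected after 12, 24 and 48 h without any labelled heat or drug treatment, with 3 biological replicates in each of the 6 groups and 18 samples in all. The age, sex and number of animals behind a culture, and any pooling of animals, are not given in the sources used here. The tm1a allele is carried by every cell type of the animal, and no Cre or transgene is named.

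Heat shock proteins bind unfolded or nascent proteins and keep them from aggregating. HSP70 proteins cycle with J-domain partners, which deliver clients, and with exchange factors, which release them, while HSP90 proteins finish the folding of signalling proteins. The transcription factor HSF1 raises the inducible members when unfolded protein accumulates, by binding inverted repeats of GAA in their promoters. Sensory neurons are known for a high level of the small heat shock protein HSPB1, which also follows nerve injury.

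Dynlrb1 was lower in each of the 9 HET cultures (2716 to 4087 normalized counts) than in each of the 9 WT cultures (5229 to 6674). All 12 sensory neuron markers were measured in the cultures, and their summed normalized count ran from 539296 to 750436 per culture. Satellite glia and Schwann markers, 10 of 10 measured, summed to between 39960.2 and 79876, so other cells of the ganglion were present. In RNA from whole cultures, fewer cells of a type and less RNA per cell cannot be told apart. Sequencing depth is unknown, because the deposited columns were scaled to near-equal totals. Replicate 3 of HET at 48 h stood apart from its group on the first principal component of all genes, which held 43.5% of the variance. Its coordinate was -15.5, against 27.4 and 45.8 in the other HET cultures at 48 h and -10.3 to 16.9 in the 24 h cultures. Several results that use it are also given without it.

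The inducible HSP70 genes stood lower in WT at 48 h than at 12 h, and lay higher in HET than in WT at 48 h. Of the 8 other genes none passed between genotypes in the unpaired fit to the normalized counts of all 18 cultures. The small heat shock gene Hspb1, lower in HET at 48 h, missed the threshold narrowly there, where 413 of all genes had an adjusted p under 0.06. Hspb1 passed with same-numbered cultures paired, under quantile normalization, or with certain single cultures left out. The HSP70 partner Dnaja1, higher in HET at 48 h, passed with pairing alone, and not once directions missing from a second set of deposited columns were modelled as well. Over time in WT, Hspb1 and Hsp90aa1 rose and Dnaja1 fell from 12 to 48 h. The constitutive chaperones Hspa8 and Hsp90ab1, and the co-chaperones Dnajb1, Hsph1 and Bag3, passed in no comparison of that unpaired fit.

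Levels between genes are compared per length, as the authors' FPKM averaged over the 18 cultures. Hsp90ab1, the constitutive HSP90, had the highest level at 1269 FPKM, followed by Hspa8, the constitutive HSP70, at 862 and the inducible HSP90 gene Hsp90aa1 at 381. The ranges of these 3 genes over cultures did not touch. Hspb1 came next at 187 FPKM and Bag3 at 141, and the range of Hspb1 overlapped those of both Hsp90aa1 and Bag3. Hsph1 stood at 53.0, below every culture's Bag3. Dnajb1 at 30.8 and Dnaja1 at 24.7 had overlapping ranges. The inducible genes Hspa1b, at 10.4 FPKM, and Hspa1a, at 7.69, had the lowest FPKM and were the most variable. How reads that fit both of these genes were counted is not given in the sources used here, so both levels may be affected. The highest culture exceeded the lowest by 6.71-fold for Hspa1a and 5.35-fold for Hspa1b, against 2.74-fold for Hspb1 and 1.28-fold for Dnajb1.

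**Figure D1:**
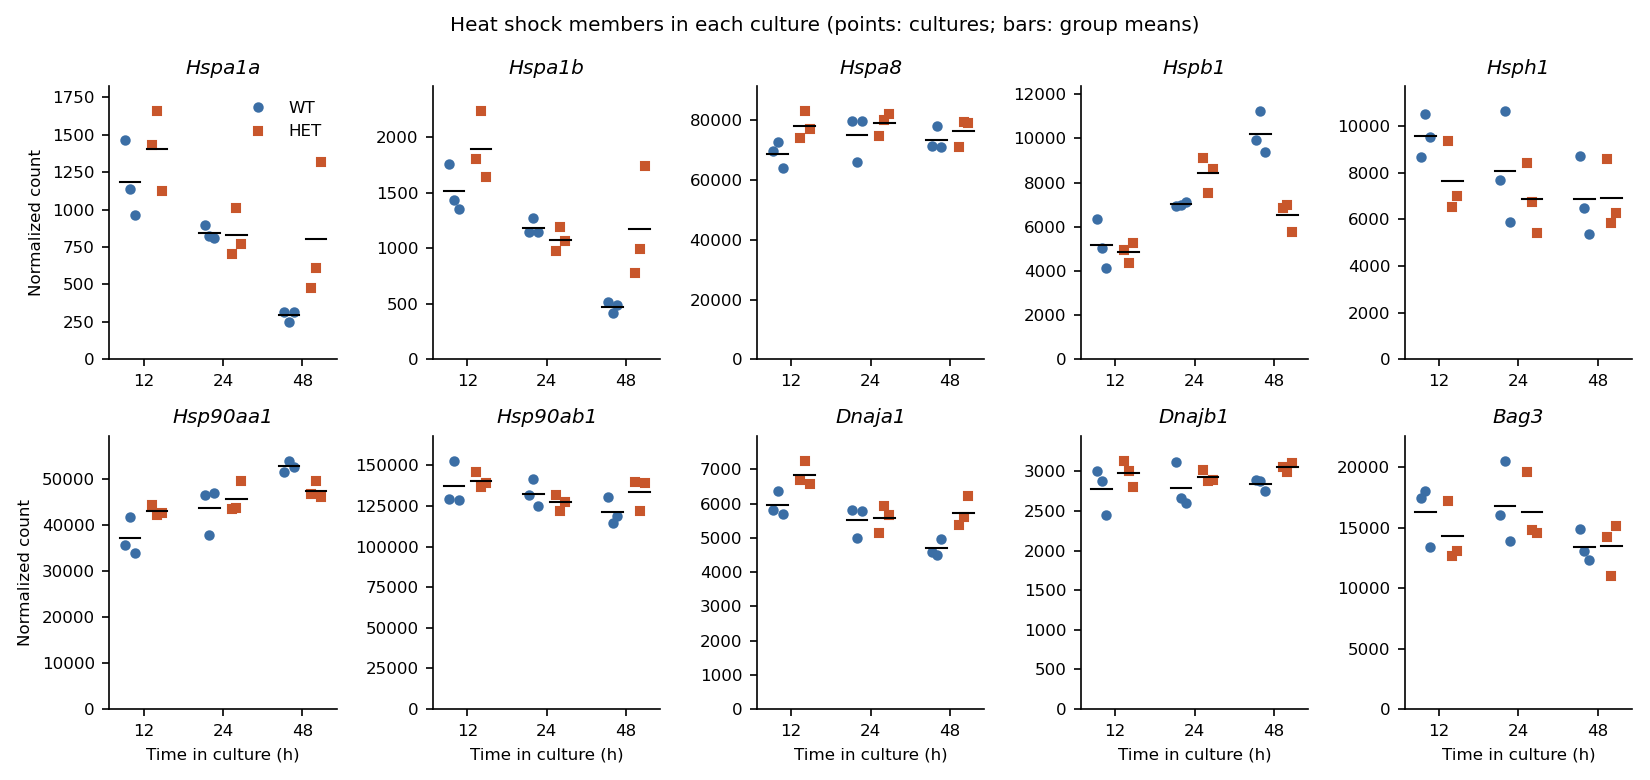
Normalized count (vertical axis, from 0) of each of the 10 genes against time in culture in hours. Blue circles are WT and orange squares HET cultures, 3 per group in replicate order from left to right, and bars are group means. Hspa1a and Hspa1b are highest at 12 h and lowest in WT at 48 h, where Hspb1 is highest.

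Hspa1a and Hspa1b encode the stress-inducible cytosolic HSP70. They are single-exon genes on the minus strand of mouse chromosome 17 (GRCm38, chr17:34969190-34972156 and chr17:34956436-34959238), separated by 9951 bases. Their coding sequences agree at 1918 of 1929 aligned positions (99.4%), so reads can fit either gene, and how the authors divided such reads is not given in the sources used here. Hspa1b held between 54.1% and 62.8% of the summed count of the pair in every culture. The stretch from 130 to 61 bases before the start of each gene is printed because the 2 genes share it letter for letter, and Hspb1 is set beside them because it moved the other way with time. Capitals mark the paired heat shock unit GAANNTTC. Sequences are from RefSeq, build GRCm38.p6, at chr17:34972217-34972286 and chr17:34959299-34959368 (minus strand) and chr5:135887789-135887858 (plus strand).
Hspa1a: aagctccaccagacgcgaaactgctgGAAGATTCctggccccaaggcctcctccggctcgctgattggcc
Hspa1b: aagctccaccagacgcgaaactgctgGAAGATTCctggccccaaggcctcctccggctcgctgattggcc
Hspb1: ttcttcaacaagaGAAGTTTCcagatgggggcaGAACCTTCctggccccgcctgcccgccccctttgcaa

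The unit begins 104 bases before the start in Hspa1a and Hspa1b, and 117 and 97 bases before it in Hspb1. Windows from 250 bases before to 50 after each start were searched on both strands for GAANNTTC and TTCNNGAA, counting overlapping matches. The table held windows for 7 members, all but Hspa8, Hsp90aa1 and Hsp90ab1. At least 1 match lay in a window of 6 of these 7 genes, against 17% of all 27025 genes in the table. Dnajb1 had none in either of its 2 windows. Hsph1 had a match 33 bases before its first start and, after the start, the only run of 3 units among the members, a pattern that 0.662% of all genes held. Dnaja1 had 1 at 124 bases before 1 of its 3 starts, and Bag3 had 1 after its start. These matches describe letters in a window and not bound sites.

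Hspa1b was at 1753, 1428 and 1348 normalized counts in replicates 1, 2 and 5 of WT at 12 h, and at 1140.3, 1273 and 1141 at 24 h. In WT at 48 h, replicates 1, 2 and 3 had 517, 417 and 485. In HET the same order gave 1801, 2235 and 1642 at 12 h, 977, 1189 and 1065 at 24 h, and 775, 993 and 1743 at 48 h. The genotypes overlapped at 12 and 24 h, while every HET culture at 48 h lay above every WT culture. Replicate 3 of HET at 48 h was as high as cultures at 12 h. Hspa1a ran in parallel, at 313, 247 and 318 in WT at 48 h against 479, 610.4 and 1316 in HET. At 12 h its counts were 1461, 1136 and 963 in WT and 1431, 1659 and 1124 in HET. The 24 h counts of Hspa1a were 899, 824 and 808 in WT and 702, 1010.0 and 769 in HET.

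At 48 h the HET minus WT difference on the log2(normalized count + 1) scale was 1.22 for Hspa1b (SE 0.21, 3 cultures against 3), or 2.34-fold. For Hspa1a it was 1.32 (SE 0.27), or 2.49-fold. These are the values that chose the group and carry no test. Without replicate 3 of HET they were 0.89 for both genes, and with each other replicate of HET left out they were between 1.30 and 1.62. Summed over the pair, WT cultures at 48 h had 766 ± 88.7 (SD, n = 3). The HET cultures had 1972 ± 957 (SD, n = 3), a wider spread, with 1254, 1604 and 3059 in replicates 1, 2 and 3. The genotype comparisons at earlier times were tested with limma and Benjamini-Hochberg adjustment over all genes. Their differences come from the 12 and 24 h cultures, but the standard error of each gene is pooled over all 6 groups, the 48 h cultures included. The difference for Hspa1b was 0.32 (SE 0.21) at 12 h, with an adjusted p of 0.646, and -0.14 (SE 0.21) at 24 h, with an adjusted p of 1. Their 95% intervals ran from -0.12 to 0.77 and from -0.58 to 0.30. Fitted to the compared groups alone, which leaves the 48 h cultures out, the SE of Hspa1b was 0.14 at 12 h and 0.11 at 24 h, with limma adjusted p of 0.537 and 1.

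With time, Hspa1b fell from 12 to 24 h in HET by 0.80 on the log2 scale (SE 0.21, limma adjusted p = 0.0147). Every HET culture at 24 h lay below every HET culture at 12 h. Fitted to these 2 groups alone, the SE was 0.13 and the limma adjusted p 0.00922. Without replicate 2 of HET at 12 h the adjusted p was 0.0880, and without replicate 1 of HET at 24 h it was 0.0566, within a range of 1.90e-04 to 0.0880 over all alternatives. In WT the 12 to 24 h difference was -0.34 (SE 0.21, limma adjusted p = 0.371). Hspa1a differed by -0.76 in HET (SE 0.27, limma adjusted p = 0.0594), and passed in the fit to the 2 groups alone (adjusted p = 0.0226) and without replicate 2 of HET at 24 h (0.0482). In WT it differed by -0.47 (adjusted p = 0.338). The test of whether the 2 genotypes differed in this step gave -0.46 for Hspa1b (SE 0.30, limma adjusted p = 0.998). From 12 to 48 h the differences, which use the 48 h samples and carry no test, were -1.67 in WT and -0.77 in HET for Hspa1b, and -2.00 and -0.93 for Hspa1a. Without replicate 3 of HET at 48 h the HET values were -1.10 for Hspa1b and -1.36 for Hspa1a.

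Hspb1 (chr5:135887919-135889563) encodes HSP27, a small heat shock protein that holds unfolded clients and binds actin and intermediate filaments. It had 6338, 5030.2 and 4110.2 normalized counts in WT at 12 h, 6922, 6963 and 7136 at 24 h, and 9942, 11246 and 9405 at 48 h. In HET it had 4960.4, 4344 and 5258 at 12 h, 9129, 7518 and 8615 at 24 h, and 6868, 6966 and 5750.1 at 48 h. The WT groups climbed without overlap, whereas in HET the 24 h cultures were the highest. HET lay wholly above WT at 24 h and wholly below it at 48 h.

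In WT, Hspb1 rose by 1.0 from 12 to 48 h on the log2 scale (SE 0.13, 2.00-fold, limma adjusted p = 4.49e-05) and kept its call under all 14 alternatives. Of this, the step from 24 to 48 h was 0.54 (SE 0.13, limma adjusted p = 0.00833) and that from 12 to 24 h was 0.46 (adjusted p = 0.0581, and 0.0376 without replicate 1 of WT at 12 h). The 24 to 48 h call ended when the directions missing from the authors' second set of per-sample columns were modelled with the replicate block. That fit takes nothing from replicate 3 of WT, which occurs only at 48 h. Hspb1 then differed by 0.02, with a limma adjusted p of 0.967 (from 0.00213 to 0.967 over all alternatives). In HET it rose by 0.79 from 12 to 24 h (SE 0.13, limma adjusted p = 0.00167), also under all 14 alternatives. It stood 0.43 above its 12 h level at 48 h (SE 0.13, limma adjusted p = 0.0404), a call that ended without replicate 1 or 2 of HET at 12 h (0.0775 and 0.159) or at 48 h (0.157 and 0.154). It also ended under quantile normalization (0.0523), on the authors' second set of per-sample columns (0.33, adjusted p = 0.0861) and in a fit to the compared groups alone (0.103). Without replicate 3 of HET at 48 h, this difference was 0.52 with an adjusted p of 0.0121, and over all alternatives the adjusted p ran from 0.00182 to 0.159. The 24 to 48 h difference in HET was -0.37 (SE 0.13, limma adjusted p = 0.131).

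Between genotypes at 48 h, Hspb1 differed by -0.64 (SE 0.13, 95% interval -0.92 to -0.37). The limma adjusted p was 0.0502, and 0.00517 with the replicate number as a block. Without the block, the lowest limma adjusted p of any gene was 0.0501, and 413 of all genes lay under 0.06. Same-numbered WT and HET cultures at 48 h deviated together, so at this time the numbers were taken as pairs. Across genes, r of their deviations from group means was between 0.209 and 0.461 in the 3 pairs. Cultures with different numbers were not compared, and same-numbered HET cultures at 12 and 24 h reached 0.357 in replicate 1. The fit with the block also pairs the 12 and 24 h cultures and pools each gene's spread over all times. Without replicate 3 of HET the difference was -0.56 and the unpaired adjusted p 0.251. The adjusted p was 0.0253 without replicate 3 of WT, 0.0387 and 0.0397 without replicates 1 and 2 of HET, and 0.0418 under quantile normalization. Over all alternatives it ran from 0.00517 to 0.389, and the difference from -0.70 to -0.56. At 12 h the difference was -0.07 (SE 0.13, adjusted p = 0.891), and at 24 h it was 0.26 (SE 0.13, adjusted p = 1). The genotype difference in the 24 to 48 h step was -0.91 (SE 0.19). Its limma adjusted p was 0.180, and 0.0141 under the replicate block. This term rests on the 24 h pairs as well, which did not all deviate together (r from -0.207 to 0.258).

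Dnaja1 and Dnajb1 encode J-domain proteins that hand clients to HSP70. Dnaja1 (chr4:40722150-40737149) had 5803, 6371 and 5698 normalized counts in WT at 12 h, 5801, 4987 and 5788 at 24 h, and 4592, 4512 and 4961 at 48 h. In HET it had 6676, 7251 and 6576 at 12 h, 5129, 5913 and 5653 at 24 h, and 5364, 5602 and 6221 at 48 h. HET lay above WT without overlap at 12 and at 48 h, and overlapped it at 24 h. In WT, Dnaja1 fell from 12 to 48 h by 0.35 on the log2 scale (SE 0.09, limma adjusted p = 0.00401) under all 14 alternatives.

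In HET, Dnaja1 fell by 0.30 from 12 to 24 h (SE 0.09, limma adjusted p = 0.0251). That call ended without replicate 2 of HET at 12 h (adjusted p = 0.121), replicate 1 of HET at 24 h (0.107) or replicate 5 of HET at 24 h (0.0585), and in a fit to the compared groups alone (0.0510), and the adjusted p ran from 0.00899 to 0.121 over all alternatives. The HET difference from 12 to 48 h was -0.26 (SE 0.09, limma adjusted p = 0.0567), and without replicate 3 at 48 h it was -0.32 with an adjusted p of 0.0168. On the second set of columns it was -0.35 and passed as lower (adjusted p = 0.0203). From 24 to 48 h in WT the difference was -0.23 (limma adjusted p = 0.0535), and it passed as lower on the second columns (-0.31, adjusted p = 0.0147) and without replicate 2 of WT at 24 h (0.0389) or replicate 3 of WT at 48 h (0.0487). The genotype difference at 48 h was 0.29 (SE 0.09, 1.22-fold). Its limma adjusted p was 0.0799, and 0.0385 under the replicate block. With the missing directions modelled beside the block it was 0.0758, above the threshold. Over all alternatives it ran from 0.23 to 0.33, with adjusted p from 0.0385 to 0.419. Replicate 3 had the highest count of the HET cultures at 48 h, so this difference is smaller without it. At 12 h the difference was 0.20 (SE 0.09, adjusted p = 0.579). Averaged over the 3 times it was 0.17 (SE 0.05, limma adjusted p = 0.310).

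Dnajb1 (chr8:83608193-83612653), the partner that recruits the inducible HSP70 to aggregates, varied least of the 10 genes. Its counts ran from 2448 to 3116 in WT and from 2808 to 3134 in HET. At 48 h the HET cultures had 3057, 2990.3 and 3111 and the WT cultures 2896, 2878 and 2749, without overlap. The difference was 0.10 (SE 0.09, 95% interval -0.08 to 0.29, limma adjusted p = 0.514).

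HSP90 is encoded by a stress-responsive and a constitutive gene. Hsp90aa1 (chr12:110690605-110702728), the stress-responsive HSP90, had 35828, 41748 and 34008 normalized counts in WT at 12 h, 46575, 37895 and 47152 at 24 h, and 51656, 54088 and 52805 at 48 h. In HET it had 44473, 42343 and 42660.5 at 12 h, 43507, 43856 and 49555 at 24 h, and 46812, 49609 and 46136 at 48 h. HET lay wholly above WT at 12 h and wholly below it at 48 h. In WT, Hsp90aa1 rose by 0.51 from 12 to 48 h (SE 0.10, 1.43-fold, limma adjusted p = 4.67e-04) under all 14 alternatives. In HET the same difference was 0.14 (SE 0.10, adjusted p = 0.332). The genotype difference in this change was -0.37 (SE 0.13), with a limma adjusted p of 0.548.

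From 24 to 48 h in WT, Hsp90aa1 rose by 0.28 (SE 0.10, limma adjusted p = 0.0408). This call was not kept without replicate 2 of WT at 24 h (0.17, adjusted p = 0.208) or without replicate 1, 2 or 3 of WT at 48 h (0.0744, 0.119 and 0.0746). It was not kept either on the second set of columns (0.20, adjusted p = 0.0792) or in a fit to the compared groups alone (0.0619), and the adjusted p reached 0.412 over all alternatives, with a lowest value of 0.0340. Between genotypes the difference was 0.22 at 12 h (SE 0.10, limma adjusted p = 0.577) and -0.15 at 48 h (SE 0.10, adjusted p = 0.357). Hsp90ab1 (chr17:45567775-45573271), the constitutive HSP90, ran from 114794 to 152948 counts in WT and from 122010.2 to 146192 in HET. Its genotype difference was 0.14 at 48 h (SE 0.09, 95% interval -0.06 to 0.34, limma adjusted p = 0.401). Its WT difference from 12 to 48 h was -0.17 (SE 0.09, adjusted p = 0.139), and it passed as lower (-0.28, adjusted p = 0.0361) on the authors' second set of per-sample columns.

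Hspa8 (chr9:40800984-40810087), the constitutive HSC70 that also uncoats clathrin vesicles, had 63966 to 79927 counts in WT and 71203 to 83202 in HET. At 12 h the HET cultures (74206, 83202 and 77064) lay above the WT cultures (69781, 72810.4 and 63966), a difference of 0.18 (SE 0.09, limma adjusted p = 0.594). At 48 h the difference was 0.06 (SE 0.09, 95% interval -0.14 to 0.25, adjusted p = 0.755). Among HSP70 exchange factors, Hsph1 (chr5:149614287-149636376), which encodes HSP110, ran from 5394 to 10659 counts and Bag3 (chr7:128523616-128546981), which links HSP70 to autophagy, from 11019 to 20561. Both overlapped between genotypes at every time. The 48 h difference was 0.02 for Hsph1 (SE 0.22, 95% interval -0.45 to 0.49) and -0.00364 for Bag3 (SE 0.17, 95% interval -0.36 to 0.36), with limma adjusted p of 0.974 and 0.992. These intervals are wider than those of the other tested members at 48 h. Hsph1 was -0.50 from 12 to 48 h in WT (SE 0.22, limma adjusted p = 0.0720). It passed as lower in the fit to the compared groups alone (adjusted p = 0.0307), on the second set of columns (-0.61, 0.0471) and without replicate 1 of WT at 48 h (-0.69, 0.0276).

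Counted over the members, 0 of 10 passed between genotypes at 12 h, where limma called 0.00581% of all genes (1 of 17198). At an unadjusted p under 0.05 there were 2 members, beside 8.41% of all genes. At 24 h 0 of 10 passed, with 0.00581% of all genes called and 0 members at an unadjusted p under 0.05 beside 1.15% of all genes. At 48 h 0 of the 8 tested members passed, with 0% of all genes called, and 2 members at an unadjusted p under 0.05 beside 22% of all genes. With the replicate block at 48 h, Hspb1 (lower) and Dnaja1 (higher) passed, 2 of 8, where 12.3% of all genes did (5.04% higher and 7.29% lower). The average over times gave 0 of 8, with 0.0174% of all genes called and 1 member, Dnaja1, at an unadjusted p under 0.05 beside 13.5% of all genes. Median differences over the 10 members were 0.15 and -0.01 at 12 and 24 h, against -0.02 and 0.01 over all genes. The 48 h median of 0.08 includes Hspa1a and Hspa1b, whose values chose the group, and is not set against all genes.

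Groups did not overlap for 3 of 10 members at 12 h (Hspa8, Hsp90aa1 and Dnaja1, all higher in HET), where 15.1% of all genes did not (7.07% higher). At 24 h this held for Hspb1 alone, higher in HET, with 5.6% of all genes (2.81% higher). At 48 h it held for 4 of the 8 members that the choice did not use, with 24% of all genes (9.57% higher and 14.4% lower). Dnaja1 and Dnajb1 were then higher and Hspb1 and Hsp90aa1 lower in HET.

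**Figure D2:**
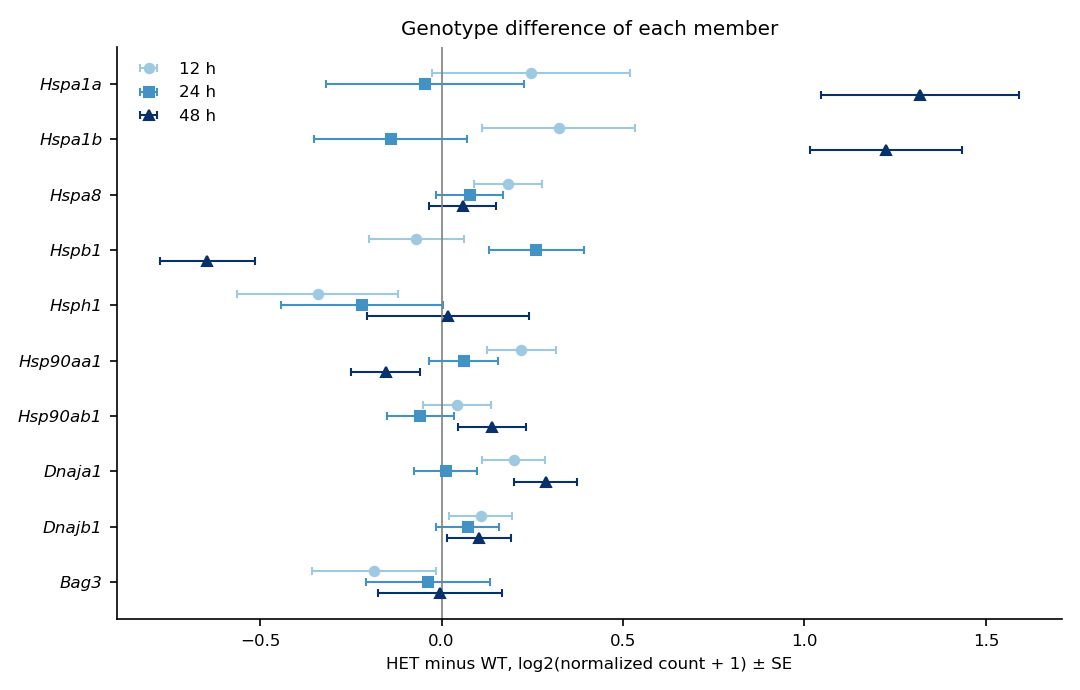
HET minus WT difference (horizontal axis, log2 of normalized count + 1) of each of the 10 genes at 12, 24 and 48 h. Symbols are limma estimates from 3 against 3 cultures and bars are standard errors. Hspa1a and Hspa1b at 48 h lie at 1.32 and 1.22, Hspb1 at 48 h at -0.64, and the remaining estimates between -0.34 and 0.32.

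For time in WT, 0 of 10 members passed from 12 to 24 h, with 3.62% of all genes called and 2 members at an unadjusted p under 0.05 beside 21.4% of all genes. From 12 to 48 h 3 of 8 passed, Hspb1 and Hsp90aa1 higher and Dnaja1 lower, with 47.1% of all genes called (30% higher and 17.1% lower). From 24 to 48 h 2 of 8 passed, Hspb1 and Hsp90aa1, both higher, with 27.7% called (17.4% higher). On the authors' second set of columns Hspb1 stayed called as higher for this step, Hsp90aa1 did not, and Dnaja1 passed as lower. In HET, 3 of 10 passed from 12 to 24 h, Hspb1 higher and Hspa1b and Dnaja1 lower, with 18.9% called (13.1% higher and 5.76% lower). From 12 to 48 h 1 of 8 passed, Hspb1, which was higher, with 14.2% called (10.6% higher), and from 24 to 48 h 0 of 8, with 2.49% called and 1 member at an unadjusted p under 0.05 beside 19.1% of all genes. On the second set of columns the 12 to 48 h call was Dnaja1, lower, and Hspb1 did not pass. The WT and HET counts cannot be read as a genotype difference, since the tests of that difference called 0 genes of 17198 for each of the 3 steps. At an unadjusted p under 0.05 they held 0, 2 and 2 tested members for the 12 to 24, 12 to 48 and 24 to 48 h steps, beside 2.15%, 8.92% and 16% of all genes. The shares higher and lower depend on the scaling. On the normalized counts 63.6% of the genes called from 12 to 48 h in WT were higher, against 52.6% on the authors' second set of columns, and in HET 74.5% against 51.9%. The median of all genes in WT was 0.11 on the first and 0.01 on the second. Hspb1 and Hsp90aa1 were higher and Dnaja1 lower in WT on both, and Hsph1 and Hsp90ab1 passed as lower on the second and not on the first in the fit to all groups.

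**Figure D3:**
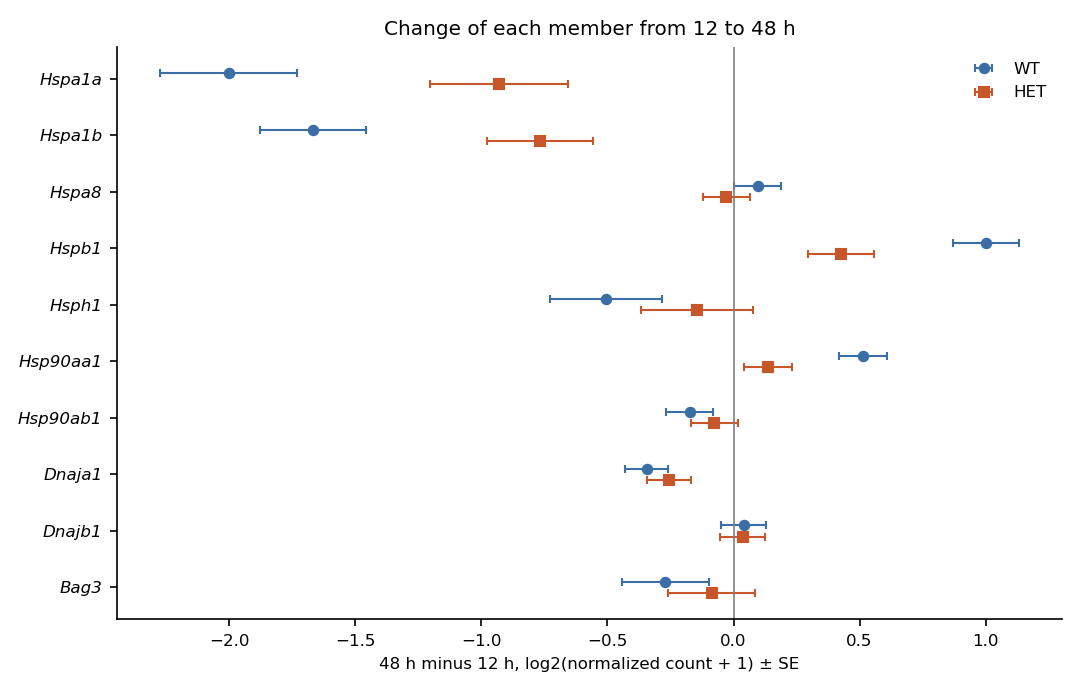
Difference between 48 and 12 h (horizontal axis, log2 of normalized count + 1) of each of the 10 genes, in WT (blue circles) and HET (orange squares). Symbols are limma estimates from 3 against 3 cultures and bars are standard errors. Hspa1a and Hspa1b lie farthest to the left and Hspb1 farthest to the right, each farther from 0 in WT (-2.00, -1.67 and 1.0) than in HET (-0.93, -0.77 and 0.43).

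The wider chaperone system was described with 94 further genes in 10 lists by role, some genes in more than 1 list. Between genotypes 0 of 94 passed in limma at 12, at 24 and at 48 h and in the average, where 5, 0, 15 and 3 had an unadjusted p under 0.05, beside 8.41%, 1.15%, 22% and 13.5% of all genes. With the replicate block at 48 h, 4 were higher and 6 lower in HET, where 5.04% of all genes were higher and 7.29% lower. Over time in WT, 44 were higher and 9 lower at 48 h than at 12 h, where 30% of all genes were higher and 17.1% lower, with a median of 0.24 against 0.11 over all genes. On the second set of columns 34 were higher and 12 lower, beside 4177 and 3760 of all 17198 genes, with a median of 0.14 against 0.01. In HET 8 were higher and 2 lower, where 14.2% of all genes were called. These became 23 and 3 without replicate 3 of HET at 48 h, while over all genes 1820 higher and 622 lower became 3406 and 1480. On the second set of columns they were 4 and 4, beside 999 and 926 of all genes, where the median was 0.04 against 0.01 over all genes. The counts of the lists that follow for WT from 12 to 48 h stand against the same 30% higher and 17.1% lower over all genes. Both time comparisons have their own 12 h cultures. The WT and HET counts of these genes cannot be read as a genotype difference. The test of that difference in the 12 to 48 h change called 0 of 94. At an unadjusted p under 0.05 it held 9, beside 8.92% of all genes.

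The chaperonin CCT, the ring that folds actin and tubulin, had all 8 of its subunits higher at 48 h in WT, among them Cct4 by 0.56 (SE 0.09) and Cct8 by 0.46 (SE 0.09), with 7 of 8 on the second set of columns. In HET 0 of 8 passed in limma and 3 had an unadjusted p under 0.05, beside 32% of all genes, with a median of 0.18 against 0.42 in WT. Without replicate 3 of HET at 48 h, 2 of 8 passed, where 3406 of all 17198 genes were higher and 1480 lower. The test of the genotype difference in this change called 0 of 8. At an unadjusted p under 0.05 it held 2, beside 8.92% of all genes. Chaperones of the endoplasmic reticulum split, with 8 of 15 higher and 2 lower in WT. Calr, a lectin chaperone, rose by 1.07 (SE 0.17) and the disulfide isomerase Pdia6 by 0.77 (SE 0.17), while the ER J-domain gene Dnajb9 fell by 1.44 (SE 0.25) and the ER HSP70 Hspa5 (BiP) fell by 0.38 (SE 0.15). Calr and Pdia6 also rose in HET, by 0.63 and 0.58.

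Small heat shock genes other than Hspb1 were higher in WT at 48 h in 4 of 5 measured members, among them Hspb8 by 0.42 (SE 0.11). Hspb8 also rose from 12 to 24 h in both genotypes, by 0.47 in WT and 0.37 in HET (SE 0.11 each). Cryaa and Hspb3 were on the list but had no row in the table. Mitochondrial chaperones had 5 of 10 higher and 1 lower in WT at 48 h, with Clpp at 0.60 (SE 0.12), Grpel1 at 0.59 (SE 0.10) and Clpx at -0.38 (SE 0.15). The mitochondrial HSP70 Hspa9 and the protease Lonp1 rose early, from 12 to 24 h, by 0.41 and 0.55 in WT and by 0.46 and 0.61 in HET.

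HSP90 co-chaperones had 5 of 15 higher and 2 lower in WT at 48 h. The ubiquitin ligase Stub1, which marks HSP70 and HSP90 clients for degradation, rose by 0.77 (SE 0.10) and the ATPase activator Ahsa1 by 0.61 (SE 0.10), while Fkbp4 fell by 0.57 (SE 0.13) and the myosin chaperone Unc45a fell by 0.40 (SE 0.11). Stub1 rose in HET too, by 0.45. Among other HSP70 family and exchange genes, 5 of 14 were higher and 1 lower. The exchange factors Bag2 and Bag1 rose by 1.22 (SE 0.21) and 0.43 (SE 0.10), and Hspa12a fell by 0.55 (SE 0.09) in WT and by 0.27 in HET. Other J-domain genes had 6 of 13 higher and 1 lower, with Dnajc9 at 0.74 and Dnajb5 at 0.68, and prefoldin 2 of 6 higher, Pfdn4 at 0.55 and Pfdn6 at 0.43.

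Genes known to respond to HSF1 outside the members had 6 of 18 higher and 3 lower in WT from 12 to 48 h, with a median of 0.16, close to the shares of all genes (30% and 17.1%). The collagen chaperone Serpinh1 rose by 1.04 (SE 0.26) and Ahsa1 rose, while Ier5, a feedback regulator of HSF1, fell by 0.65 (SE 0.17). Of the HSF genes and their binding protein, Hsf1, Hsf2, Hsf4 and Hsbp1, only Hsf4 passed in that comparison, and fell by 0.37 (SE 0.09). Between genotypes at 48 h, 0 of 18 HSF1-responsive genes passed in limma, with a median of -0.02 and 2 at an unadjusted p under 0.05, beside 22% of all genes. Of the 4 HSF genes 0 passed, and 0 had an unadjusted p under 0.05. 

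**Figure D4:**
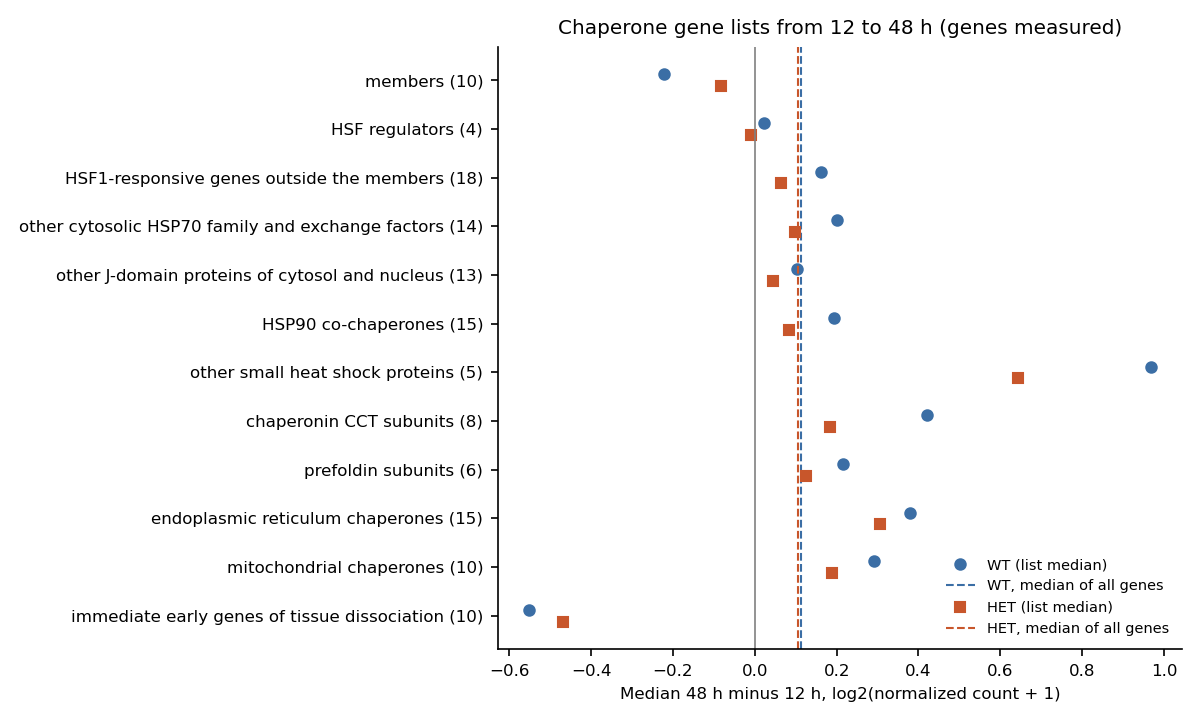
Median difference between 48 and 12 h (horizontal axis, log2 of normalized count + 1) of the 10 members, of 10 further chaperone lists and of immediate early genes, in WT (blue circles) and HET (orange squares). Dashed lines are the medians of all genes. Small heat shock genes other than Hspb1 lie at 0.97 in WT and 0.64 in HET, and the members at -0.22 and -0.08. The member medians include the 48 h values of Hspa1a and Hspa1b, which chose the group.

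Other transcripts moved with time beside the members. Immediate early genes, which tissue dissociation raises, had 6 of 10 lower and none (0) higher in WT from 12 to 48 h, with Fos at -3.06 and Fosb at -3.54. Their summed count was 76506 to 93258 in WT at 12 h and 54912 to 64263 in WT at 48 h. In HET at 48 h it was 56577, 61919 and 88615 in replicates 1, 2 and 3. Neutrophil and red cell markers were lower in 6 of 6, and endothelial markers in 3 of 4, while fibroblast markers were higher in 4 of 6 and macrophage markers in 2 of 6, with 1 lower. Glial markers had 1 of 10 higher and 4 lower, and sensory neuron markers 3 of 12 higher and 6 lower. Between genotypes at 48 h, 0 of the 54 genes of these lists passed in limma, and 15 had an unadjusted p under 0.05, beside 22% of all genes. Neutrophil and red cell markers then summed to 78.8 to 124 in WT and to 121, 184 and 1842 in replicates 1, 2 and 3 of HET. Glial markers summed to 39960.2 to 41913 in WT and 41198 to 52124 in HET, and fibroblast markers to 17195 to 27597 and 12669.6 to 26305. Sensory neuron markers summed to 546744 to 581530 in WT and 587117 to 609050 in HET, and macrophage markers to 2069 to 3537 and 1313 to 1968. Endothelial markers summed to 3801 to 5329 and 4447 to 6442. No listed marker that was measured stood at 0. The part of these other cells in the member results was not tested.

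The first principal component of all genes ordered the cultures mainly by time, from -55.5 to -31.0 at 12 h and -10.3 to 16.9 at 24 h. WT at 48 h lay at 73.8, 85.6 and 43.9 and HET at 45.8, 27.4 and -15.5. Hspa1b was high at the 12 h end and low at the WT 48 h end. Of the HET cultures at 48 h, replicate 1 lay within the range of WT at 48 h on that axis and replicate 2 between the 24 h cultures and that range. Replicate 3 lay between the 12 and 24 h cultures, and its Hspa1b count of 1743 was in the 12 h range. Hspb1 in HET at 48 h, at 5750.1 to 6966, lay below WT cultures at 24 h except for replicate 2.

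**Figure D5:**
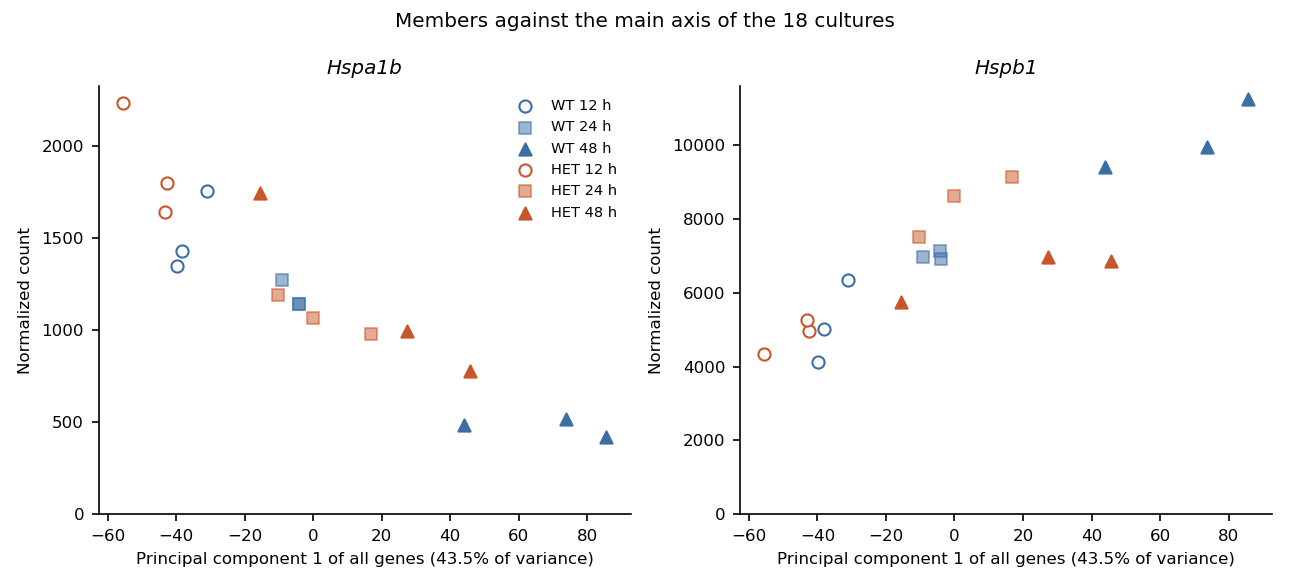
Normalized count of Hspa1b (left) and Hspb1 (right) against the first principal component of all genes, which holds 43.5% of the variance. Each symbol is 1 of 18 cultures, blue for WT and orange for HET, with circles at 12 h, squares at 24 h and triangles at 48 h. Replicate 3 of HET at 48 h, at -15.5, has 1743 counts of Hspa1b and 5750.1 of Hspb1.

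The 5 genes whose log2 profile over the 18 cultures was most like that of Hspa1b were Zcchc12 (Pearson r = 0.976), Dkk3 (0.966), Map2k4 (0.961), Gpc5 (0.959) and Aldoc (0.958), among 12467 genes with a mean of at least 100. For the mean of the members' standardized values they were Map1lc3b (0.891), Gm1821 (0.879), S100a8 (0.860), Napa (0.854) and Nap1l2 (0.851). All 18 cultures share the 6 groups, so these values follow the group means and are descriptions. After removal of group means, Hspa1a and Hspa1b still had r = 0.964, Hsph1 and Bag3 0.779 and Hspa1b and Dnaja1 0.516, while Hspa1b and Hspb1 had -0.321.

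In the authors' deposited table, which came from edgeR, Hspa1a and Hspa1b had log2 fold changes of 1.45 and 1.31 between HET and WT at 48 h. The same deposited table gave Hspb1 a log2 fold change of -0.64 at 48 h with an adjusted p of 0.00132, and Dnaja1 0.29 with 0.122. It listed 1028 genes at an adjusted p under 0.05 for that comparison.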

How the data were processed

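RNA-seq of 18 cultures was analysed from 1 deposited table of 17198 genes. Per the submitters' processing notes, the build was mm10 and CASAVA 1.8.2 and edgeR were used. The aligner, counter and annotation are not given in the sources used here. Per the file headers, the authors deposited normalized counts, a signal with no whole number and column totals from 41509705 to 41509874, a second set of per-sample signal columns without that label, and FPKM. The authors' deposited log2 fold changes, p-values and adjusted p-values, per the file headers, were read for comparison, and their rank score stayed unused. Another 24 columns that set 1 sample against a group were not used.

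Groups and replicate numbers came from the titles. Because the values were not counts, the planned count test was replaced by limma 3.58.1 in R 4.3.3 (lmFit, and eBayes with a trend) on log2(normalized count + 1) for genes with a mean of at least 1, a filter that removed 0 genes. Fold changes are on that scale and understate those of low genes. The model had 1 coefficient for each of the 6 groups (12 residual degrees of freedom), and p-values were adjusted by Benjamini-Hochberg within each of 13 comparisons at a threshold of 0.05. The second set of per-sample columns spanned 15 of 17 possible directions among samples. The span of the fitted normalized counts was not computed, so these degrees of freedom may be overstated. The script was tested on simulated data.

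Same-numbered WT and HET cultures correlated in their deviations at 0.0318 to 0.188 at 12 h and -0.207 to 0.258 at 24 h. At 48 h they correlated at 0.209 to 0.461, so the numbers were read as pairs at 48 h alone, a choice made from these same data. The fit with the block nonetheless paired the cultures at 12, 24 and 48 h. P-values measure the spread between these cultures. The members and lists were chosen with earlier results of these data known. Named genes were the members, Dynlrb1, and from each list up to 2 higher and 2 lower genes that passed, had a mean of 100 or more and did not overlap between groups. Promoter windows were RefSeq's for GRCm38.p6, and gene coordinates GENCODE's for GRCm38. Alternatives were another pseudocount (0.1), another minimum mean (5) or none, quantile normalization, the second columns, a fit to the compared groups only, the replicate block with and without the missing directions, and each culture left out.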

Additional observations from a re-analysis of the deposited data

Results flagged for a closer look

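Hspb1 drew a closer look because every HET culture lay above every WT culture at 24 h and below every WT culture at 48 h. The genotype difference in its 24 to 48 h change was -0.905 on the log2 scale (SE 0.19), with a limma adjusted p of 0.180, of 0.0141 with the replicate block, and between 0.0141 and 0.523 over its alternatives. Hsp90aa1 drew one because every HET culture lay above WT at 12 h and below WT at 48 h. The genotype difference in its 12 to 48 h change was -0.374 (SE 0.13), with a limma adjusted p of 0.548 and of 0.201 with the replicate block. Neither passed in the unpaired test of the difference itself.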

How the results depend on the processing

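Under the alternatives, no called member value changed sign (0 of 126), while 100 of 1722 values that had not passed did, the largest of them 0.22 in size. Counts of members past the threshold differed as follows, with the number called among all 17198 genes in parentheses. At 48 h between genotypes, where 0 of 8 passed (0), quantile normalization gave 1 (276), the replicate block 2 (2120), and the block with the missing directions 1 (1953). From 12 to 24 h in WT, with 0 of 10 (622), both fits with the block gave 2 (1621 and 2447). From 12 to 48 h in WT, with 3 (8098), the second columns gave 5 (7937). From 24 to 48 h in WT, with 2 (4772), a fit to the compared groups only gave 1 (5066). The block with the missing directions gave 0 there (1295). From 12 to 24 h in HET, with 3 (3252), that block fit gave 5 (5900). From 12 to 48 h in HET, with 1 (2442), quantile normalization and the compared groups only gave 0 (1596 and 0). Both fits with the block gave 2 there (5301 and 4998). From 24 to 48 h in HET, with 0 (429), both fits with the block gave 1 (2888 and 2064). For the genotype difference in the 24 to 48 h change, with 0 (0), the replicate block gave 1 (916).

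Leaving out 1 culture at a time gave 0 to 1 at 48 h between genotypes, 0 to 1 from 12 to 24 h, 3 to 4 from 12 to 48 h and 1 to 2 from 24 to 48 h in WT, 1 to 4 from 12 to 24 h and 0 to 2 from 12 to 48 h in HET, and 0 elsewhere. Among all 17198 genes the calls then ran from 0 to 931 at 48 h between genotypes. In WT they ran from 0 to 197, 6038 to 7670 and 2236 to 4485 for the same 3 steps. In HET they ran from 1141 to 2915 from 12 to 24 h and from 0 to 4886 from 12 to 48 h. The count of HET members from 12 to 48 h became 0 without replicate 1 or 2 of HET at 12 or 48 h. The cause of these differences was not tested. Other counts stayed within 1.5 times the reported one.

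Over all genes, the counts without the replicate block were 1 at 12 h, 1 at 24 h and 0 at 48 h between genotypes, 3 on average, 622, 8098 and 4772 in WT and 3252, 2442 and 429 in HET (12 to 24, 12 to 48 and 24 to 48 h). With the block they were 17, 0, 2120, 553, 1621, 8148, 5367, 4498, 5301 and 2888, and 0, 0 and 916 for the genotype differences in change. Same-numbered cultures of 1 genotype did not all deviate together across times (r from -0.197 to 0.357), so blocked time results rest on numbers alone. Replicate 3 occurs only at 48 h, so in each genotype it is alone in its block. Blocked time results that use 48 h take nothing from it, and so differ from the unblocked ones by more than pairing. Dnaja1 from 12 to 48 h in HET differed by -0.324 with the block and by -0.317 without replicate 3 of HET at 48 h. In the main fit it differed by -0.256. The block gained calls for Bag3 (12 to 48 and 24 to 48 h in WT, 24 to 48 h in HET, lower), Hspa1a (12 to 24 h in both genotypes, lower), Hspb1 (12 to 24 h in WT, higher) and Dnaja1 (12 to 48 h in HET, lower), with adjusted p from 9.45e-04 to 0.0292, and lost Hsp90aa1 from 24 to 48 h in WT (0.119). With the missing directions beside it, Hsph1 also passed as lower from 12 to 24 h in both genotypes (0.0433 in WT and 0.0173 in HET). Depth per culture is unknown, so no interval or floor for counting error was computed. For the members, FPKM followed the normalized count up to nearly 1 constant per gene, and FPKM was not fitted. DESeq2 was not run, since the values are not counts.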
